A study of Homo sapiens with 9 samples.

Results

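The globin genes were followed across 3 human breast epithelial cell lines of increasing malignancy. The set holds 8 of the 62666 genes in the deposited table: HBE1, HBG2, HBG1, HBD and HBB of the beta-globin cluster on chromosome 11, and HBA2, HBA1 and HBQ1 of the alpha-globin cluster on chromosome 16. They were taken by gene name, and the family was picked because HBE1 climbed from 0 or 1 count per library in MCF10A to 909 or more in MCF10Ca1a. The counts of HBE1 over the lines are therefore given as a description and were not tested. The other 7 members came with it as relatives.

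Polyadenylated RNA was sequenced from MCF10A, MCF10AT1 and MCF10Ca1a cells, with 3 replicate libraries per line and 9 in all, to follow expression along breast cancer progression. MCF10A cells are immortal mammary epithelial cells that form no tumours, MCF10AT1 is a derivative of it that carries an activated HRAS gene, and MCF10Ca1a is a tumour-forming line obtained from MCF10AT1 xenografts. None of the lines was given a treatment that the others lacked, and all grew with insulin, epidermal growth factor, hydrocortisone and cholera toxin. Horse serum was 5% for MCF10A and MCF10Ca1a and 2.5% for MCF10AT1, so in every comparison with MCF10AT1 the line and the serum cannot be told apart. The labels do not say whether the replicates were separate cultures, so p-values measure only the spread between these libraries, which may be technical. Library totals were 62.9 to 69.5 M counts in MCF10A and MCF10AT1 and 32.9 to 35.2 M in MCF10Ca1a, whose smaller libraries have a higher detection limit. All 12 epithelial markers examined, among them EPCAM, CDH1 and KRT18, had counts in each of these lines, which are labelled as epithelial cells. Their summed level had a median of 4289 TPM (a level scaled for transcript length and library size) in MCF10A, 5664 in MCF10AT1 and 5704 in MCF10Ca1a. The markers did not move together. By the edgeR test described below, 8 were higher, 3 lower and 1 not called in MCF10Ca1a against MCF10A, beside 39.0% and 41.9% of all genes. KRT14 fell from a mean of 205 TPM in MCF10A to 4.78 in MCF10Ca1a, and KRT19 had only 2, 6 and 3 counts in the MCF10A libraries.

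Globins are the oxygen-binding proteins of red blood cells, where a pair of alpha-like and a pair of beta-like chains, each holding a heme group, make up hemoglobin. The genes of the beta cluster are used in turn during development: HBE1 encodes the embryonic epsilon chain, HBG1 and HBG2 the fetal gamma chains, HBD the minor adult delta chain and HBB the adult beta chain. HBA1 and HBA2 encode the same adult alpha chain, and HBQ1 encodes the theta chain. A distant enhancer region upstream of HBE1, the locus control region, drives the beta cluster in erythroid cells, and repressors such as BCL11A and ZBTB7A keep the embryonic and fetal genes silent in adults.

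The coding sequences show which members a short read can tell apart. The first 60 coding bases are given for the 5 members where this matters to the counts, read from GENCODE 29 transcripts on GRCh38, 5′ to 3′.

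HBE1, capitals mark bases that differ from HBG2: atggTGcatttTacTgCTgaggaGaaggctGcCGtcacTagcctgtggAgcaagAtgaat

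HBG2, capitals mark bases that differ from HBE1: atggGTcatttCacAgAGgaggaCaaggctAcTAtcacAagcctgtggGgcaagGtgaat

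HBG1, with no capitals because no base differs from HBG2: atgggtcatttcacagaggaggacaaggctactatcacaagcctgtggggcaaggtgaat

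HBA1, with no capitals because no base differs from HBA2: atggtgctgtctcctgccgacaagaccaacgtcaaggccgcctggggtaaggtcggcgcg

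HBA2: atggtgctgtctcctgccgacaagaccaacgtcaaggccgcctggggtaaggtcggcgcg

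HBE1 and HBG2 differ at 13 of these 60 bases and at 73 of the 441 bases of the whole coding sequence (83.4% identity), so reads of HBE1 can be separated from those of the gamma genes. HBG1 and HBG2 differ at 2 of 441 bases (99.5% identity), and HBA1 and HBA2 at 0 of 426. Within each of these pairs the split of reads between the copies is uncertain.

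HBE1 (ENSG00000213931, chr11:5268345-5505652, minus strand, GRCh38) had 0, 0 and 1 estimated counts in the MCF10A libraries. The MCF10AT1 libraries had 41, 17 and 17.6 counts of it, the MCF10Ca1a libraries 962, 909 and 1031. The lines did not overlap, and MCF10AT1 replicate 1 stood above the other two MCF10AT1 libraries. Scaled to library size, the mean was 0.00477 ± 0.00827 CPM (counts per 1 M counts of the library; SD, n = 3) in MCF10A, 0.385 ± 0.200 CPM in MCF10AT1 and 27.6 ± 1.23 CPM in MCF10Ca1a. The step from MCF10AT1 to MCF10Ca1a was 71.9-fold in mean CPM. It was 102-fold without MCF10AT1 replicate 1 and 43.7-fold between the lowest MCF10Ca1a and the highest MCF10AT1 library. All 3 MCF10A libraries were at or under 3 counts, the limit that a count of 0 allows, so folds against them are lower bounds: HBE1 was at least 8.48-fold higher in MCF10AT1 and at least 609-fold higher in MCF10Ca1a. In bulk RNA, fewer expressing cells and less RNA per cell cannot be told apart.

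Per length, HBE1 reached 44.7, 45.2 and 47.6 TPM in the MCF10Ca1a libraries. That placed it at ranks 3362, 3339 and 3157 among the 23055 to 23300 genes above 0 TPM, level with or above 85.5% to 86.3% of them. In MCF10AT1 it stood level with or above 38.2% to 45.3% of the genes above 0, at 0.366 to 0.874 TPM. HBE1 was thus among the more abundant genes of MCF10Ca1a and in the lower part of the range in MCF10AT1.

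**Figure D1:**
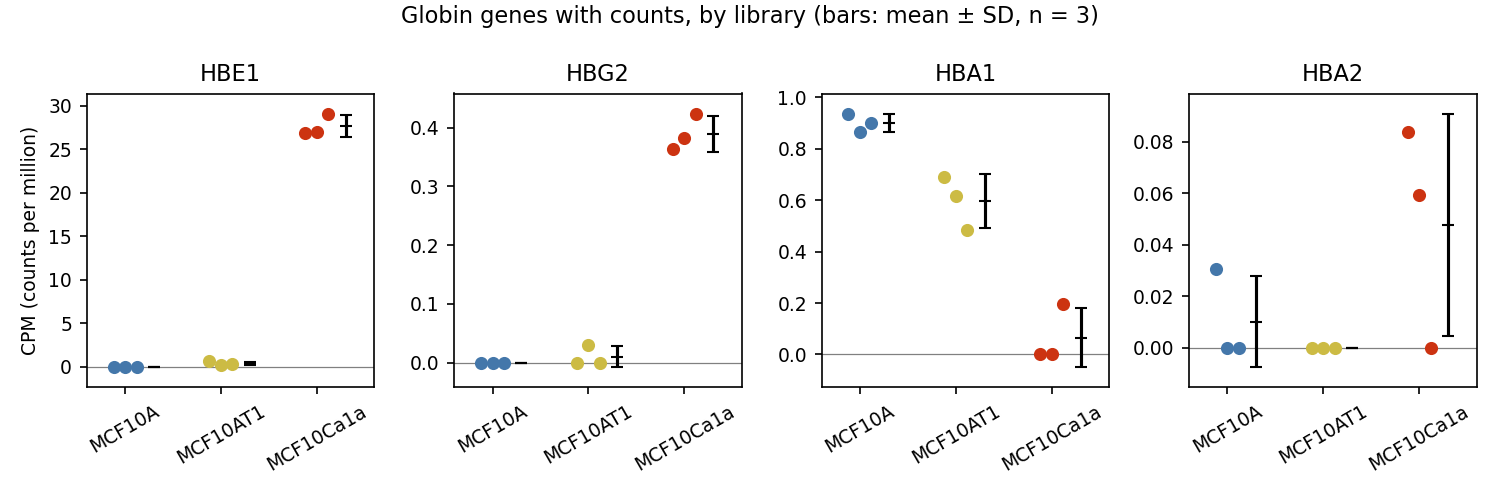
CPM of the 4 globin genes with any count, 1 point per library, with the mean and SD (n = 3) of each line beside the points and a separate vertical scale for each gene. HBE1 and HBG2 are highest in the 3 MCF10Ca1a libraries, HBA1 is highest in the 3 MCF10A libraries, and HBA2 never exceeds 3 counts.

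The other beta-cluster genes were far lower. HBG2 (ENSG00000196565, chr11:5253190-5505605, minus strand) was at 0 in the MCF10A libraries. It had 0, 2 and 0 counts in the MCF10AT1 libraries and 13, 12.9 and 15.0 counts in those of MCF10Ca1a. Its MCF10Ca1a libraries lay above all the others, at a mean of 1.02 TPM against 45.8 TPM for HBE1. In mean CPM it was at least 8.59-fold higher in MCF10Ca1a than in MCF10A and at least 8.44-fold higher than in MCF10AT1. HBG2 passed the filter on low counts (0.156 CPM in at least 3 libraries) only through MCF10Ca1a, the line where it is high, so a test of these differences would have its direction fixed by the filter, and none is given. Between MCF10AT1 and MCF10A both lines were at or under the limit of 3 counts, and no fold is given.

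HBG1, HBD and HBB (chr11:5248079-5249859, chr11:5232678-5243657 and chr11:5225464-5229395, minus strand) had 0 counts in all 9 libraries. A count of 0 allows up to 0.0430 to 0.0483 CPM in the MCF10A and MCF10AT1 libraries and up to 0.0838 to 0.0891 CPM in the MCF10Ca1a libraries. These limits, like all limits of this kind here, cover counting error only.

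Of the alpha genes, HBA1 ran the other way. The MCF10A libraries held 60.05, 56 and 63 counts of HBA1 (ENSG00000206172, chr16:176680-177522, plus strand), those of MCF10AT1 held 46, 41 and 30, and those of MCF10Ca1a 0, 0 and 7. MCF10A lay above MCF10AT1, and MCF10AT1 above MCF10Ca1a, without overlap in CPM. The mean level was 2.55 ± 0.267 TPM (SD, n = 3) in MCF10A, 1.56 ± 0.302 TPM in MCF10AT1 and 0.191 ± 0.331 TPM in MCF10Ca1a. HBA1 was 13.7-fold lower in MCF10Ca1a than in MCF10A (log2 change -3.71, SE 0.57, adjusted p 3.35e-05 from the quasi-likelihood test of edgeR, corrected by Benjamini-Hochberg over the 17910 genes that were tested, as every adjusted p here). It was 9.08-fold lower than in MCF10AT1 (log2 change -3.12, SE 0.60, edgeR adjusted p 0.000279). HBA1 met the minimum of the filter in every library of MCF10A and MCF10AT1 but not of MCF10Ca1a. The filter thus favoured the direction of the tests against MCF10Ca1a, and their p-values are no independent support for it. All of the MCF10Ca1a signal came from replicate 3. Without it the fold is a bound, at least 10.4-fold lower than in MCF10A and at least 6.91-fold lower than in MCF10AT1.

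Between MCF10AT1 and MCF10A the log2 difference in HBA1 was -0.59 (SE 0.34, edgeR adjusted p 0.154) and was not called. It was called when only these lines were fitted (-0.56, edgeR adjusted p 0.0253) and when MCF10Ca1a replicate 3 was left out (-0.59, edgeR adjusted p 0.0276). Over all alternatives its adjusted p ran from 0.0253 to 0.458 in the tools used, and the call also appeared with all libraries in the fit when limma was run on log2(TPM + 1) (adjusted p 0.0363) or HBA1 and HBA2 were summed (edgeR adjusted p 0.0340).

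HBA2 (chr16:172876-173710, plus strand) had 1.95, 0 and 0 counts in the MCF10A libraries, was at 0 throughout MCF10AT1, and had 3, 2 and 0 counts in the MCF10Ca1a libraries. It was under the filter on low counts and was not tested. Because its coding sequence is identical to that of HBA1, the sum of the copies was also examined, an alternative added after the data were seen. For MCF10A the sum was 62, 56 and 63 counts, for MCF10AT1 46, 41 and 30, and for MCF10Ca1a 3, 2 and 7. With the copies added, the MCF10Ca1a level was 8.03-fold lower than that of MCF10A and 5.26-fold lower than that of MCF10AT1, a smaller fall than that of HBA1 alone. HBQ1 (chr16:180453-181181, plus strand) had 0 counts in all 9 libraries.

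Of the 7 members other than HBE1, 2 passed the filter on low counts, HBA1 and, only through MCF10Ca1a, HBG2, and no count of calls over the members is read. The calls of HBA1 stand against a background in which many genes differed. In MCF10Ca1a against MCF10A, where HBA1 was lower, 80.9% of all genes tested were called, 39.0% higher and 41.9% lower. In MCF10Ca1a against MCF10AT1, where it was also lower, 78.4% of all genes were called, 38.0% higher and 40.3% lower. In MCF10AT1 against MCF10A, where it was not called, 61.6% of all genes were, 29.8% higher and 31.8% lower. With so many genes called between the lines, a call on its own sets no gene apart.

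The transcript tables show which annotated HBE1 transcript the authors' quantification credited. The short transcript ENST00000396895, which starts at chr11:5269945 directly before the coding sequence, received the 1 count of MCF10A replicate 3 and 0 in the other 8 libraries. The long transcript ENST00000292896 received 38.7, 17 and 17.6 counts of the MCF10AT1 libraries, and 946, 877 and 996 of the MCF10Ca1a libraries. Its share of the gene's TPM was 98.2% ± 3.12 (SD, n = 3) in MCF10AT1 and 97.3% ± 0.987 (SD, n = 3) in MCF10Ca1a. The remainder went to ENST00000380237, with 15.8, 31.7 and 34.3 counts in MCF10Ca1a.

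Both long transcripts begin at a first exon that lies 235.6 kb upstream of the start of the short one. In ENST00000292896 this exon spans chr11:5505569-5505652 and has 84 bases. Its second exon begins 211 bases upstream of the short transcript's start, so the long form carries 295 upstream bases that the short form lacks. The coding sequence is the same 441 bases (between chr11:5268472 and chr11:5269890), so the transcripts differ in their leader and not in the protein. The locus control region is known to lie between these starts. The tables hold totals per transcript and not read positions, so reads across the distal junction were not counted here.

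**Figure D2:**
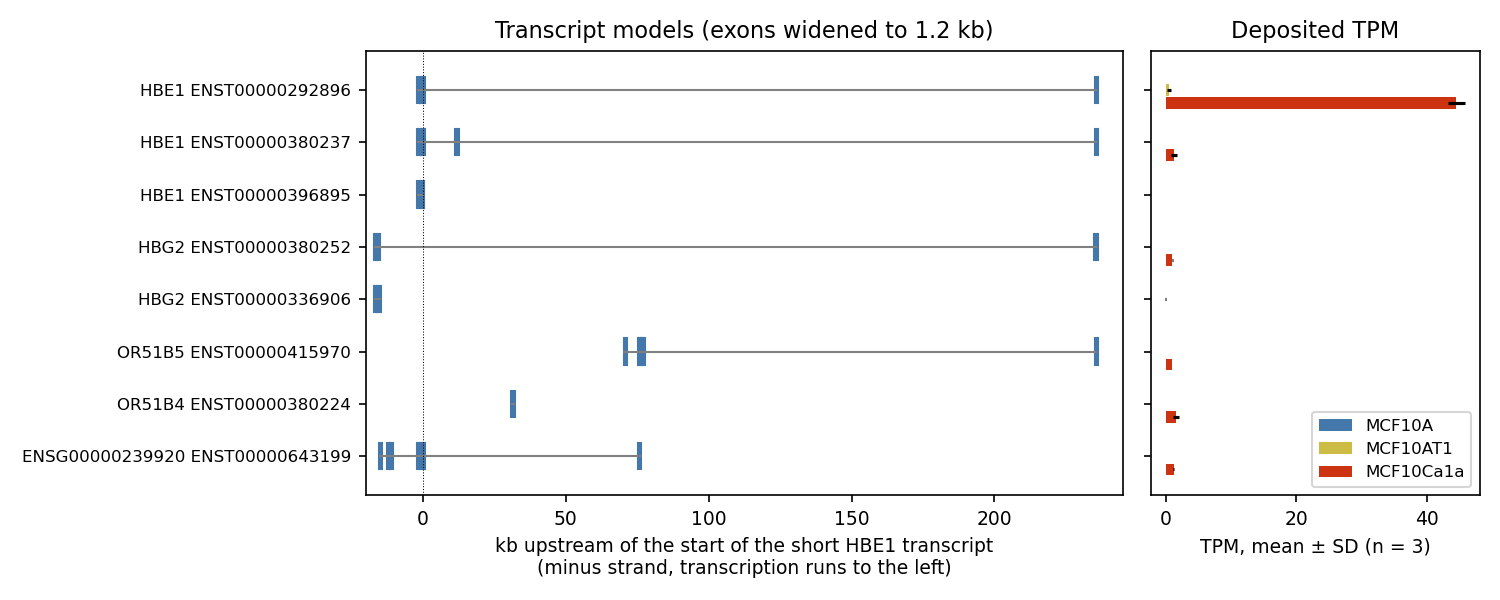
Left, exons (boxes, drawn at least 1.2 kb wide) and introns (lines) of 8 transcripts of the beta-globin region by distance in kb from the start of the short HBE1 transcript. Right, deposited TPM of each (mean ± SD, n = 3); the long HBE1 transcript ENST00000292896, whose first exon lies 235.6 kb upstream, holds nearly all of the signal, in MCF10Ca1a.

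HBG2 showed the same feature. All of its counts in MCF10Ca1a (13, 12.9 and 15.0) were given to ENST00000380252, a transcript that also begins at the distal site, with a first exon of 255 bases at chr11:5505351-5505605. That exon shares 37 bases with the distal HBE1 exon, and its other 218 bases lie inside the first HBE1 intron. The annotated coding part of this transcript has 276 bases against 441 in the standard HBG2 transcript ENST00000336906, which had 2 counts in MCF10AT1 replicate 2 and 0 elsewhere. The HBG2 counts of MCF10Ca1a were thus assigned to a model that overlaps the HBE1 unit, and how many came from HBE1 RNA was not tested.

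In all, 7 annotated transcripts of HBE1, HBG2 and the olfactory receptor gene OR51B5 start at the distal site. Together they were at 0 in MCF10A, took 41, 17 and 18.6 counts of the MCF10AT1 libraries, and took 996, 942 and 1065 of the MCF10Ca1a libraries. The HBE1 share of these was 96.5% to 96.8% in MCF10Ca1a and 94.6% to 100% in MCF10AT1. Counts of the transcripts annotated with the distal start were therefore nearly all credited to HBE1 in both derived lines. These counts cover whole transcripts, so they do not measure how many reads came from the distal start itself.

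The genes around the clusters were read next, from a list of 95 genes within 250 kb of either cluster. The beta cluster was taken from HBB to the distal HBE1 exon (chr11:5225464-5505652). The list therefore includes genes more than 250 kb upstream of the short HBE1 transcript. Of the 95 genes, 94 were matched, 42 had a count in any library and 22 were tested. In MCF10Ca1a against MCF10A, 9 were higher, 10 lower and 3 not called, with a median log2 change of -0.15 against -0.05 for all genes tested. That is 86.4% called, near the 80.9% of all genes. In MCF10Ca1a against MCF10AT1, 10 were higher, 11 lower and 1 not called, or 95.5% against 78.4% of all genes (median -0.22, all genes -0.04). In MCF10AT1 against MCF10A, 3 were higher, 9 lower and 10 not called, or 54.5% against 61.6% (median -0.04, all genes -0.00). The tested neighbours include OR51B4, OR51B5 and ENSG00000239920, which met the minimum of the filter only in MCF10Ca1a, and RGS11, which met it in every library only in MCF10A. Of the 60 matched neighbours of the beta cluster, mostly olfactory receptor genes, 44 had 0 counts in all libraries and 7 were tested.

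The 3 neighbours with the largest positive fitted change in MCF10Ca1a against MCF10A all overlapped the HBE1 transcription unit. OR51B4, an olfactory receptor gene that lies inside the first intron of the long HBE1 transcript (chr11:5301014-5301946), was at 0 in MCF10A. The MCF10AT1 libraries gave it 2, 0 and 0 counts, the MCF10Ca1a libraries 24, 27 and 16. It was at least 14.1-fold higher in MCF10Ca1a than in MCF10A. OR51B5 was likewise at 0 in MCF10A, had 0, 0 and 1 counts in the MCF10AT1 libraries, and 21, 20 and 19 in those of MCF10Ca1a. This was at least 12.6-fold higher than MCF10A. Of its counts in MCF10Ca1a, 15.5, 15.5 and 15.4 were given to ENST00000415970, a noncoding transcript with the same 84-base first exon as HBE1.

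ENSG00000239920, a gene without a symbol in the deposited table, was given 0, 2.01 and 0 counts of the MCF10A libraries, 0, 0 and 8.49 of those of MCF10AT1, and 48.6, 47.0 and 46.7 of those of MCF10Ca1a. It was at least 29.9-fold higher in MCF10Ca1a than in MCF10A. For these 3 genes the filter fixed the direction, so no test is given. Most of it, 39.8, 39.7 and 39.1 counts in MCF10Ca1a, was given to ENST00000643199, a noncoding transcript that shares exons with HBE1. The kit kept strand information, and these genes lie on the same strand as HBE1, so strand does not separate their reads from reads of unspliced or alternative HBE1 RNA. Their part in one another's counts was not tested.

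The 3 neighbours with the largest negative fitted change lay farther out or at the other cluster. For a gene at 0 the fitted change depends on the prior count, so this order is not one of measured folds. TRIM6, an E3 ubiquitin ligase gene upstream of the distal start, went from 561, 532 and 564 counts in the MCF10A libraries through 31, 47 and 33 at the MCF10AT1 stage to 0, 0 and 3 at the MCF10Ca1a stage. It was at least 97.2-fold lower in MCF10Ca1a than in MCF10A (edgeR adjusted p 4.43e-11). TRIM22, an interferon-induced antiviral gene farther upstream, had a mean of 22.9 TPM in MCF10A, 29.2 in MCF10AT1 and 0.237 in MCF10Ca1a, and fell by 7.81 on the log2 scale between MCF10A and MCF10Ca1a (SE 0.12, edgeR adjusted p 2.69e-15). RGS11, a regulator of G protein signalling near the alpha cluster, went from 23, 17 and 17 counts through 7, 8 and 10 to 0 in every MCF10Ca1a library, at least 3.36-fold lower, with no test given. NME4, a nucleoside diphosphate kinase gene of the alpha window, was picked out after its values were seen. It fell from 66.5 ± 1.499 CPM (SD, n = 3) in MCF10A to 4.90 ± 0.287 in MCF10Ca1a (log2 change -3.76, SE 0.06, edgeR adjusted p 4.36e-15). This measured fall cannot be ranked against the bound for RGS11.

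**Figure D3:**
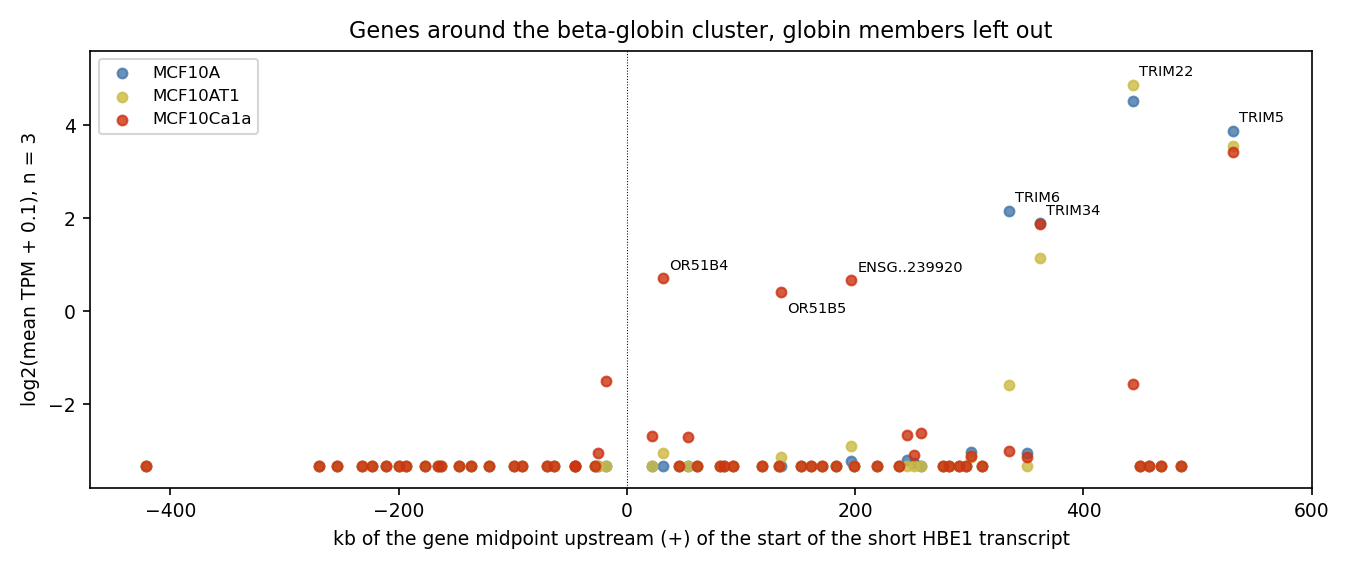
Mean level per line (log2 of TPM + 0.1, n = 3) of the 60 matched genes around the beta-globin cluster, without the globin members, by distance in kb of the gene's midpoint from the start of the short HBE1 transcript. Among the genes above 1 TPM, OR51B4, OR51B5 and ENSG00000239920 are high in MCF10Ca1a alone, and TRIM6 and TRIM22 are low there.

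Other proteins of the globin fold were compared with the members. MB, which encodes the muscle oxygen-storage protein myoglobin, had 1, 1 and 0 counts in the MCF10A libraries, 1, 1 and 2 in the MCF10AT1 libraries, and 24, 24 and 28 in the MCF10Ca1a libraries. It was at least 15.97-fold higher in MCF10Ca1a than in MCF10A and at least 15.7-fold higher than in MCF10AT1. MB too passed the filter only through MCF10Ca1a, so no test is given. CYGB, which encodes the widely expressed cytoglobin, averaged 0.763 ± 0.150 CPM (SD, n = 3) in MCF10A, 0.395 ± 0.0718 in MCF10AT1 and 0.829 ± 0.122 in MCF10Ca1a. It fell in MCF10AT1 against MCF10A (log2 change -0.94, SE 0.23, edgeR adjusted p 0.00286) and was higher again in MCF10Ca1a (1.07 against MCF10AT1, SE 0.25, edgeR adjusted p 0.00125). HBZ, the embryonic alpha-like gene, and HBM, NGB and ADGB had 0 counts in all 9 libraries, so the rise of HBE1 came with no count of its embryonic alpha-like partner.

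Heme is the cofactor of every globin, and of the genes that make and handle it more were called lower than higher in MCF10Ca1a. Of 18 genes listed, 17 were tested. Against MCF10A 4 were higher and 13 lower in MCF10Ca1a, where 39.0% of all genes were higher and 41.9% lower, and the median log2 change was -0.91 against -0.05 for all genes tested. Against MCF10AT1 5 were higher, 11 lower and 1 not called, beside 38.0% higher and 40.3% lower among all genes (median -0.78, all genes -0.04). In MCF10AT1 against MCF10A 3 were higher, 10 lower and 4 not called, beside 29.8% and 31.8% among all genes, with a smaller median of -0.19. The summed level of the list ran from 758 to 816 TPM in MCF10A, from 635 to 660 in MCF10AT1 and from 542 to 546 in MCF10Ca1a.

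ALAS2, the erythroid form of the first and rate-limiting enzyme of heme synthesis, had 0 counts in all libraries. ALAS1, the form used by other tissues, rose from 24.3 ± 2.54 CPM (SD, n = 3) in MCF10A through 32.6 ± 1.17 to 63.7 ± 1.31 in MCF10Ca1a, a log2 change of 1.39 over both steps (SE 0.07, edgeR adjusted p 1.74e-10). Enzymes that act after it fell. In MCF10Ca1a against MCF10A the log2 changes were -1.35 for ALAD, -1.15 for UROS, -1.20 for UROD and -1.45 for CPOX, with adjusted p from 3.69e-11 for UROS to 9.67e-10 for ALAD in edgeR's test. FECH, which inserts iron in the last step, fell most among the enzymes named here, from 56.4 ± 0.743 CPM in MCF10A and 34.9 ± 1.69 in MCF10AT1 to 11.2 ± 0.506 in MCF10Ca1a (log2 change -2.33, SE 0.06, edgeR adjusted p 2.25e-13). PPOX, the enzyme before it, was lowest in MCF10AT1, at 17.2, 6.41 and 13.4 CPM in the order MCF10A, MCF10AT1 and MCF10Ca1a.

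Outside the synthesis steps, ABCB10, a mitochondrial transporter that supports heme synthesis, fell from 88.6 ± 9.54 CPM (SD, n = 3) through 32.3 ± 1.67 to 8.04 ± 0.541 CPM (log2 change -3.46 in MCF10Ca1a against MCF10A, SE 0.09, edgeR adjusted p 2.75e-13). Genes of heme breakdown were among those that rose. HMOX1, the inducible heme oxygenase, had 1.60 ± 0.122 CPM in MCF10A, 2.35 ± 0.0934 in MCF10AT1 and 15.6 ± 0.789 in MCF10Ca1a (log2 change 3.28, SE 0.09, edgeR adjusted p 8.90e-13). BLVRB, a biliverdin reductase, rose by 1.45 (SE 0.06, edgeR adjusted p 3.14e-11). HMOX2 and BLVRA, the other oxygenase and reductase, were lower in MCF10Ca1a.

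**Figure D4:**
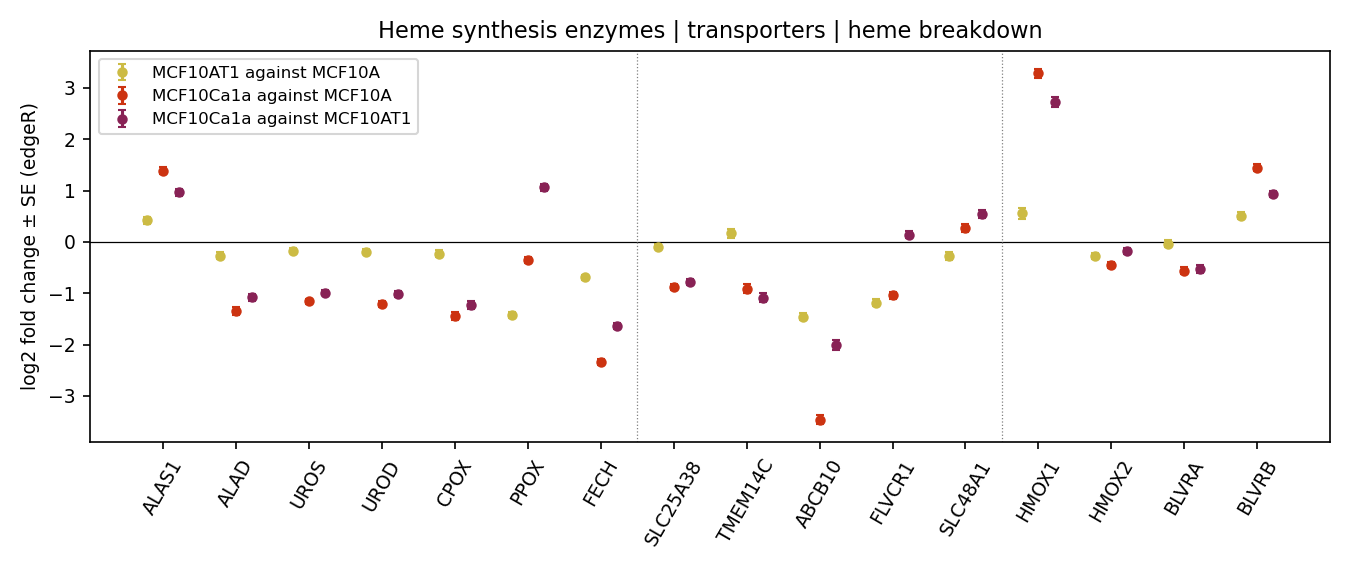
Log2 fold change from edgeR, with SE derived from its test statistic, for 16 tested heme genes in the 3 comparisons. Synthesis enzymes are at the left in pathway order, transporters in the middle and breakdown genes at the right. In MCF10Ca1a against MCF10A, ALAS1 lies at 1.39 and HMOX1 at 3.28, while the other synthesis enzymes shown lie below 0.

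Transcription factors and cofactors known for their work on globin genes were mixed in direction. Of 39 listed, 32 were tested. In MCF10Ca1a against MCF10A 9 were higher, 19 lower and 4 not called (median log2 change -0.28, all genes -0.05), beside 39.0% higher and 41.9% lower among all genes. Against MCF10AT1 12 were higher, 15 lower and 5 not called (median 0.07), beside 38.0% and 40.3%. In MCF10AT1 against MCF10A 6 were higher, 13 lower and 13 not called (median -0.10), beside 29.8% and 31.8%. The share called in MCF10Ca1a against MCF10A, 87.5%, was near that of all genes, 80.9%. It was 84.4% beside 78.4% in MCF10Ca1a against MCF10AT1, and 59.4% beside 61.6% in MCF10AT1 against MCF10A. The tested regulators include GATA2, which met the minimum of the filter in every library only in MCF10A.

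GATA1 and KLF1, a pair of erythroid activators, were at or near 0. GATA1, the master regulator of red cells, had 0 counts in all 9 libraries, and KLF1, the erythroid activator of HBB, had 5, 9 and 9 counts in the MCF10A libraries and 0 to 3 in each of the others. NFE2, an activator that binds the locus control region, ran from 8 to 11 counts per library in MCF10A, from 10 to 19 in MCF10AT1 and from 8 to 9 in the smaller MCF10Ca1a libraries. Scaled to library size, its mean was 0.140 ± 0.0170 CPM (SD, n = 3) in MCF10A, 0.229 ± 0.0635 in MCF10AT1 and 0.239 ± 0.0248 in MCF10Ca1a. NFE2 was not called in any comparison. LMO2, a bridging protein of the GATA1 complex, fell at both steps, from 2.05 ± 0.121 CPM (SD, n = 3) through 0.498 ± 0.145 to 0.0940 ± 0.0694 CPM (log2 change -4.40, SE 0.35, edgeR adjusted p 3.57e-08). GATA2, the GATA factor of blood progenitors, had 51, 51 and 42 counts in the MCF10A libraries, the only line in which every library met the minimum of the filter, and 5 to 8 in each of the others.

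Repressors of the embryonic and fetal genes did not move together. BCL11A, a repressor of the gamma genes, had 8.74 ± 0.163 CPM (SD, n = 3) in MCF10A, 2.48 ± 0.169 in MCF10AT1 and 7.98 ± 0.322 in MCF10Ca1a. It was lower in MCF10AT1 than in both other lines (log2 change -1.81, SE 0.08, edgeR adjusted p 4.65e-10 against MCF10A) and was not called between MCF10Ca1a and MCF10A (-0.13, SE 0.08, edgeR adjusted p 0.142). ZBTB7A, the second main gamma repressor, rose at both steps, from 45.8 ± 4.71 through 64.0 ± 2.81 to 103 ± 2.84 CPM (log2 change 1.17 in MCF10Ca1a against MCF10A, SE 0.07, edgeR adjusted p 1.21e-09). MCF10Ca1a had the highest level of both ZBTB7A and HBE1, and a link between them was not tested.

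MYB, a factor that holds gamma expression down in erythroid cells, had 3.35 ± 0.238 CPM (SD, n = 3) in MCF10A, 3.16 ± 0.0910 in MCF10AT1 and 0.887 ± 0.0669 in MCF10Ca1a (log2 change -1.92 against MCF10A, SE 0.13, edgeR adjusted p 8.21e-09). SOX6, a partner of BCL11A, had 43, 56 and 62 counts in the MCF10A libraries, 64, 47 and 47 in the MCF10AT1 libraries, and 6, 24 and 18 in the MCF10Ca1a libraries, where replicate 1 stood lowest (log2 change -0.81 against MCF10A, SE 0.34, edgeR adjusted p 0.0426). NR2C1 and NR2C2 encode the orphan receptors TR2 and TR4, which repress HBE1. NR2C1 was highest in MCF10AT1 and lower in MCF10Ca1a than in MCF10A (log2 change -0.42, SE 0.07, edgeR adjusted p 3.88e-05), whereas NR2C2 was not called between MCF10Ca1a and MCF10A (0.10, SE 0.06, edgeR adjusted p 0.110).

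LIN28B, an RNA-binding protein linked to fetal globin, had 1 count in 1 MCF10Ca1a library and 0 elsewhere. HMGA2, a chromatin protein of the same axis, fell from 126 ± 4.26 CPM (SD, n = 3) in MCF10A and 84.5 ± 4.09 in MCF10AT1 to 9.74 ± 0.363 in MCF10Ca1a (log2 change -3.69, SE 0.06, edgeR adjusted p 7.28e-15). The largest rises of the list were KLF2, which is known to activate embryonic globin genes, with 8 counts in each MCF10A library and 23 to 30 in the MCF10Ca1a libraries (log2 change 2.69, SE 0.29, edgeR adjusted p 9.35e-07), and MAFK, the small partner of NFE2 (1.36, SE 0.07, edgeR adjusted p 1.53e-10). KLF2 rose at both steps, as HBE1 did, to a mean of 0.579 TPM in MCF10Ca1a, and a link between them was not tested.

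Markers of red cells, the cell type that makes globins, were mostly at or near 0. Of 21 listed genes, 13 were at or under 3 counts in every MCF10A library, 14 in MCF10AT1 and 15 in MCF10Ca1a, and 6 were tested. In MCF10Ca1a against MCF10A 1 was higher and 5 lower, where 39.0% and 41.9% of all genes were. In MCF10AT1 against MCF10A 5 were lower and 1 was not called, where 31.8% of all genes were lower. In MCF10Ca1a against MCF10AT1 2 were higher, 3 lower and 1 not called, where 38.0% and 40.3% of all genes were higher and lower. Of the 6, RHCE met the minimum of the filter only in MCF10Ca1a, and ANK1 and SPTB met it in every library only in MCF10A, so nothing is read from these counts. GYPB, a red cell membrane protein, RHD, ALAS2, AHSP (the alpha-chain chaperone), CA1 and GATA1 were among those at 0 in all 9 libraries. The summed level of the list was 49.2 to 50.2 TPM in MCF10A, 35.9 to 38.8 in MCF10AT1 and 7.72 to 8.94 in MCF10Ca1a. This order rests on CA2 alone: without it the sum was 2.22 to 3.56 TPM in MCF10A, 0.951 to 1.03 in MCF10AT1 and 6.09 to 7.08 in MCF10Ca1a, which was then the highest line.

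CA2, a carbonic anhydrase of many tissues, stood at 46.9, 36.0 and 1.64 TPM in MCF10A, MCF10AT1 and MCF10Ca1a (log2 change -4.99 over both steps, SE 0.10, edgeR adjusted p 4.78e-14). ANK1, the red cell ankyrin, had 41 to 52 counts per library in MCF10A, 9 to 13 in MCF10AT1 and none in MCF10Ca1a, at least 7.89-fold lower than in MCF10A, with no test given. TMCC2 went from 98 to 124 counts per MCF10A library down to 2 in each MCF10Ca1a library (edgeR adjusted p 2.15e-09). Set against 3 counts this is 19.2-fold lower, and since 2 counts per library allow more than 3, the fall may be smaller. RHCE, a Rh blood group gene, held most of the sum without CA2 in MCF10Ca1a, at 4.97 TPM, with 5 to 7 counts per library in MCF10A, 3 or 4 in MCF10AT1, but 173, 168 and 154 in the MCF10Ca1a libraries (55.5-fold higher than in MCF10A). Its near-identical copy RHD had 0 counts, and the split between the pair is uncertain.

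The 5 genes whose levels over the 9 libraries were most like those of HBE1 were found by the root mean square difference of log2(CPM + 0.1), each gene centred on its own mean, among 15854 tested genes with a symbol. They were TMPRSS15, the intestinal enteropeptidase (difference 0.39, Pearson's r 0.995), KRT23, a keratin (0.45, r 0.995), HCAR2, a niacin receptor (0.48, r 0.990), CDH19, a cadherin (0.56, r 0.990), and UCA1, a long noncoding RNA (0.60, r 0.994). The points share the 3 lines and their libraries, so these r values describe the match and carry no test. TMPRSS15 had 2 counts or fewer in each MCF10A library, 16 to 23 in each MCF10AT1 library and a mean of 34.6 ± 0.428 CPM (SD, n = 3) in MCF10Ca1a, a rise of 117-fold from MCF10AT1 beside 71.9-fold for HBE1. No globin was among the 5. HBG2 and MB had means of only 0.390 and 0.724 CPM in MCF10Ca1a, too low to match the HBE1 rise on this scale. Nothing is therefore read from their absence.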

How the data were processed

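Polyadenylated RNA was sequenced with a stranded kit, per the labels. The authors deposited estimated counts per gene and per transcript, 2 further tables of gene counts named length-scaled and scaled, and TPM values per gene and per transcript. Salmon and the hg38 build are named in the submitters' processing notes, and versions, annotation and strand setting are not given in the sources used here. Positions and sequences came from GENCODE 29 on GRCh38, matched by unversioned identifiers.

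Deposited estimated counts were rounded. The low-count filter filterByExpr, grouped by line with a minimum count of 10 and a minimum total of 15, kept 17910 of 62666 genes. All 9 libraries entered 1 quasi-likelihood fit (edgeR 4.0.16, R 4.3.3) with TMM normalisation, and a Benjamini-Hochberg adjusted p under 0.05 over all genes was a call. CPM values use TMM-scaled totals. The edgeR test reports no SE. Each SE here is the absolute log2 change divided by the square root of the test's F statistic. Folds against a line at or under 3 counts in every library are lower bounds, computed per library against 3 counts. Where such a library held a count above 0, the bound is a convention, because that count allows more than 3. The edgeR test was tested on simulated data with the same dispersion for every gene and few genes changed. These settings differ from the data here, so nothing is read from that check. Library totals were 32.9 to 69.5 M counts, which sets the precision of low genes.

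Named genes were the members, the 3 largest called rises and falls of each list in MCF10Ca1a against MCF10A, the heme enzymes, 10 regulators, the other globin-fold genes and the 5 most similar genes. HMOX2, BLVRA, NME4, SPTB and the individual epithelial markers were named in addition, after their values were seen. Some items that this rule names are not reported here. Members and lists were chosen with earlier results of these data known. Alternatives were DESeq2 (1.42.0) size factors and test, other count tables, no filter, limma (3.58.1) on log2(TPM + 1) and log2(TPM + 0.1), only the lines compared, a replicate block, each library left out and, chosen after the data were seen, HBA1 with HBA2 summed and the erythroid sum without CA2. A gene that met the filter's minimum in all libraries of 1 line only is given without a test. HBA1, LMO2, TMCC2, TRIM6 and TRIM22 met it throughout MCF10A and MCF10AT1 but not throughout MCF10Ca1a. KLF2 and NFE2 met it throughout MCF10AT1 and MCF10Ca1a but not throughout MCF10A. Against the line that did not meet it, the filter favoured the direction of their tests, so those p-values are no independent support.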

Additional observations from a re-analysis of the deposited data

How the results depend on the processing

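Under alternatives other than leaving out a library, 220 recomputed values kept their direction and their side of the threshold, or, for counts and levels, stayed near the reported value. They include HBG2 and MB in comparisons with MCF10Ca1a, where the filter fixed the direction, so nothing is read from those. The exceptions follow. The mean of HBE1 was 0.0140 CPM in MCF10A, 0.597 CPM in MCF10AT1 and 41.4 CPM in MCF10Ca1a with the scaled counts, and 24.9 CPM in MCF10Ca1a with the length-scaled counts, and its order over the lines did not change. HBA1 in MCF10AT1 against MCF10A, not called in the reported test, was called with only these lines fitted (log2 change -0.56), with limma on log2(TPM + 1) (-0.47) and with HBA1 and HBA2 summed (-0.61). With each library left out in turn it ran from -0.70 to -0.46 and was called in 1 of 9. HBG2 in the same comparison ran from 0 (without MCF10AT1 replicate 2, which held its only counts there) to 2.95 and was called in none of these. Both lines were at or under 3 counts of HBG2, so nothing is read from this range. CYGB in MCF10Ca1a against MCF10A, 0.12 and not called, was -0.24 with length-scaled counts, -0.23 with scaled counts, -0.033 with limma on log2(TPM + 1) and -0.061 on log2(TPM + 0.1), called in none; the cause was not tested. Erythroid markers called numbered 3 and not 5 with scaled counts in MCF10AT1 against MCF10A, where 4 were tested, and 3 and not 5 with limma on log2(TPM + 1) in MCF10Ca1a against MCF10AT1. Same-numbered replicates showed little common deviation (r from -0.14 to 0.16 over 9 pairs, 1 above 0.1), and the numbers were not used as pairs in the reported test. With 3 libraries per line, each centred on its line mean, this check cannot exclude a pairing. With the replicate number as a block, HBA1 was at -3.72 in MCF10Ca1a against MCF10A, and no call of HBA1 or CYGB changed. Called heme genes then numbered 14 and not 13 in MCF10AT1 against MCF10A. Of the 5 genes most like HBE1, 4 remained with a pseudocount of 0.5 and 4 with TPM. Depth limits HBG2, HBA1 and MB in MCF10Ca1a, whose libraries are the smallest.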
